A study of Homo sapiens with 9 samples.

Results

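The cell line is LNCaP, derived from human prostate cancer, which grows as androgen-responsive luminal cells. The study used CRISPR-Cas9 to delete *EPCART*, a long noncoding RNA gene, and 2 of the resulting clones, del-4 and del-56, were grown beside a WT clone. The results below are on what differs between del-4 and del-56 themselves. Both carry the *EPCART* knockout genotype in the labels, in which the study removed the promoter and exons 1 and 2 of the gene, and both come from LNCaP. The comparison rests on 6 of the 9 libraries, 3 cultures of del-4 and 3 of del-56, chosen by the clone named in each title. All cultures were grown for 48 hours in the same serum-containing medium with no further treatment. Each group is 1 clone, so the 3 cultures of a group show how a clone varies between dishes, and the p-values measure the spread between these cultures. The 3 WT libraries stayed out of the test, and their values are given as a reference point.

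A clone descends from 1 cell, and any stable feature of that cell is shared by all of its descendants. Cells of a cancer line differ from each other in gene copy number, in mutations and in DNA methylation and chromatin states that silence or release single genes. Cloning turns such differences between cells into differences between cultures. Genome editing adds the possibility of changes that each clone acquired on its own.

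The libraries held between 91074556 and 118877134 reads on genes, with del-56 replicate 3 the shallowest. The cells of both clones expressed the luminal gene *KLK3*, which encodes prostate-specific antigen, with normalized counts of 57732, 59860 and 54904 in del-4 against 35098, 37905 and 38225 in del-56. Markers of other cell types were not all low. The neuroendocrine marker *ENO2*, a glycolytic enzyme, had 2324, 2426 and 2317 in del-4 against 1563, 1584 and 1710 in del-56 (log2 fold change 0.54, SE 0.06, adjusted p = 3.21e-06), and the stromal marker *COL1A1*, a collagen chain, had between 1101 and 1359 in all 6 libraries with a log2 fold change of -0.01 (adjusted p = 0.95). Of 8 neuroendocrine markers 6 passed the filter, of 5 basal ones 3, of 7 stromal ones 5, of 5 immune ones 3 and of 3 endothelial ones 2. The summed normalized count of the 3 immune markers ranged from 12.1 to 26.9 over the del-4 libraries and from 19.1 to 24.1 over those of del-56. For the 3 basal markers the sums ranged from 44.8 to 82.4 and from 46.1 to 83.0. The endothelial gene *VWF* (log2 fold change -1.06, SE 0.14, adjusted p = 1.71e-05) and the stromal gene *LUM* (log2 fold change -1.31, SE 0.26, adjusted p = 0.00133) were lower in del-4, while the endothelial marker *PECAM1* had at most 6.03 in any library.

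Of 17447 genes tested, 511 (2.93%) differed between the clones by more than a log2 fold change of 1 at an adjusted p under 0.05 in limma. These are referred to as called below. Of them 241 (1.38%) were higher in del-4 and 270 (1.55%) were higher in del-56. The typical gene differed little, since the median log2 fold change of del-4 minus del-56 was -0.0026 and 81.4% of tested genes lay within 0.5 of 0. The called genes reached far beyond this range, with 186 beyond a log2 fold change of 2 and 75 beyond 3. Of these 75, 39 were higher in del-4 and 36 in del-56. Genes of intermediate level were called most often: 248 of 2225 genes with a mean normalized count from 10 to 100 (11.1%), against 217 of 13051 genes at 100 or more (1.66%) and 46 of 2171 genes under 10 (2.12%). With the adjusted p alone and no limit on the fold, 3469 genes (19.9%) differed, 1898 with more in del-4 (10.9%) and 1571 with more in del-56 (9.0%). The split of the genes past the adjusted p depended on the scaling, with 1378 and 2379 after rescaling to the same total and 1623 and 1742 after quantile normalization. The 3 libraries of one clone lay wholly above the 3 of the other in 6062 genes (34.7%). Counts of called genes by the count-based tools were 451 in edgeR and 491 in DESeq2, of which 436 and 473 were also called by limma.

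**Figure D1:**
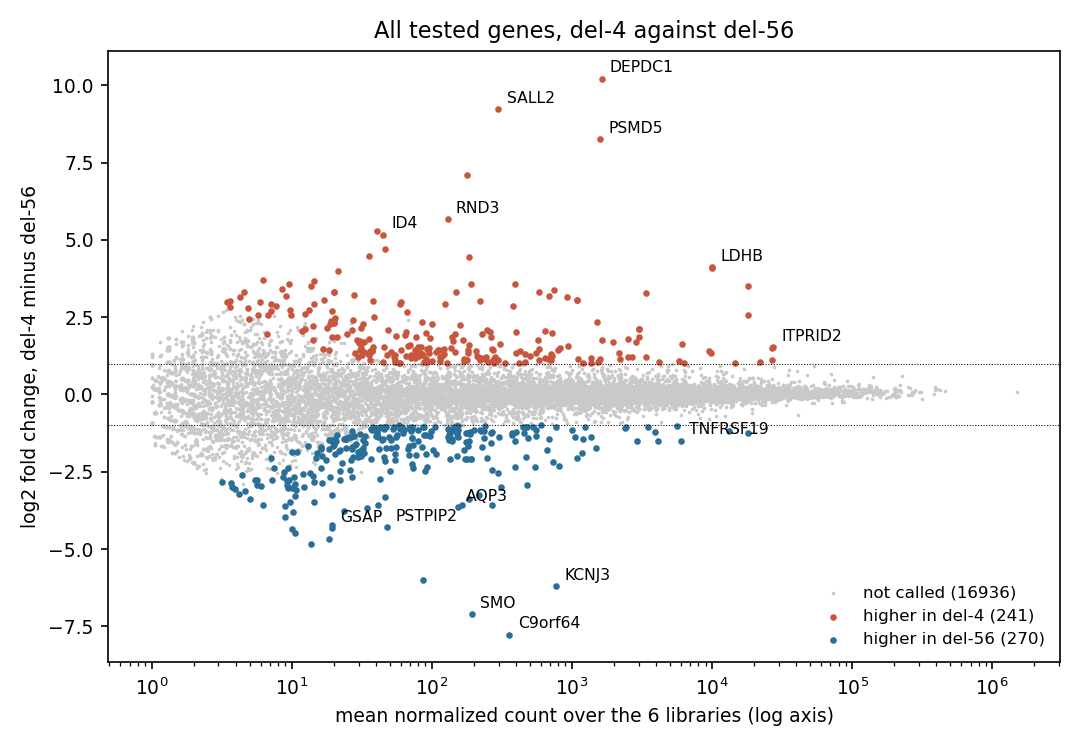
Each point is 1 tested gene, with its mean normalized count over the 6 libraries on a log axis and its log2 fold change, del-4 minus del-56, on the vertical axis; the dotted lines mark fold changes of 1 and -1. The 241 genes called higher in del-4 and the 270 called higher in del-56 spread on both sides of a dense band, up to 10.22 for *DEPDC1* and down to -7.77 for *C9orf64*.

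The largest differences were in genes that one clone expressed and that were nearly absent from the other. With at most 10 reads in every library of one clone and at least 50 in every library of the other, 7 genes were near absent in del-56 (*DEPDC1*, *SALL2*, *HK3*, *RND3*, *SMIM10L2A*, *ID4* and *NPY1R*) and 5 in del-4 (*C9orf64*, *SMO*, *GNAT3*, *PSTPIP2* and *OR51E1*). The sequence before the annotated start of 4 of them is shown. Which start these cells used was not measured. The letters are from RefSeq on GRCh38.p14, and each run ends before the first annotated transcript of the gene. Capitals mark CG dinucleotides, the sites at which human DNA is methylated.
*SALL2* (chr14:21537217-21537371, minus strand): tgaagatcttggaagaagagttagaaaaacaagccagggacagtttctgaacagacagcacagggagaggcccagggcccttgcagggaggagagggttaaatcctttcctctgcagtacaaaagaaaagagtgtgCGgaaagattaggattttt
*DEPDC1* (chr1:68497222-68497332, minus strand): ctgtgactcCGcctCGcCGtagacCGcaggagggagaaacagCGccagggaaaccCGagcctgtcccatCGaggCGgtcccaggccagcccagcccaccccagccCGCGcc
*SMO* (chr7:129188383-129188632, plus strand): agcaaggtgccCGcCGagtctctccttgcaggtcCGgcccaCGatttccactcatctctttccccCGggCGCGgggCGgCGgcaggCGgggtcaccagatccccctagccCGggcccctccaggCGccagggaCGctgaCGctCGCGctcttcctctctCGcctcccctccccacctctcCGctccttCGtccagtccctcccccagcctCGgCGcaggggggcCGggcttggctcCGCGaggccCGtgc
*PSTPIP2* (chr18:46072273-46072510, minus strand): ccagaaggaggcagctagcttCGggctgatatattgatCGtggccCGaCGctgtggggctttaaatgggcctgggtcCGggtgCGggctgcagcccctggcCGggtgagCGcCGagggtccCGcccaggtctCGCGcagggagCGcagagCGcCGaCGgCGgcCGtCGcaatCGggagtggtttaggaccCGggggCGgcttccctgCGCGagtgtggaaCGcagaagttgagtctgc
The 4 runs were not alike in CG content. The *SALL2* run held 1 CG in 155 bases, and 87.7% of all RefSeq promoter windows cut to that length held as many or more. The *DEPDC1* run held 10 in 111 bases, which 21.7% of windows matched or passed, and the *SMO* run held 25 in 250 bases, again matched or passed by 21.7%. The *PSTPIP2* run held 25 in 238 bases, matched or passed by 18.9%. Methylation was not measured in these libraries. Of the tested genes 13443 (77.1%) were matched by symbol to this promoter table, too few for a check of CG content over all called genes.

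Among the genes near absent in del-56, *DEPDC1* (ENSG00000024526.17, chromosome 1, positions 68474152 to 68497221) showed the widest gap of all tested genes. *DEPDC1* encodes a DEP domain protein that many dividing tumor cells express. Its normalized counts were 3388, 3087 and 3296 in del-4, 1.91, 6.02 and 0 in del-56 and 4998, 5045 and 4792 in WT. It was abundant in del-4 and WT, while every del-56 library was at 6 reads or fewer (log2 fold change 10.22, SE 0.45, adjusted p = 1.72e-11). The nearest genes on either side, *RPE65* and *LRRC7*, had log2 fold changes of -0.55 (adjusted p = 0.519) and 0.24 (adjusted p = 0.0183). *RPE65* lay 24198 bases away and *LRRC7* 1070701 bases away.

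*SALL2* (ENSG00000165821.12, chromosome 14, positions 21521080 to 21537216), a zinc finger transcription factor of the spalt family, had no read in any del-56 library. Its normalized counts were 595, 576 and 617 in del-4 and 1117, 1274 and 1216 in WT. Set against 3 reads per library as a floor, del-4 was at least 188-fold higher (adjusted p = 9.97e-12). The nearest tested genes were *METTL3*, 9738 bases away, with a log2 fold change of -0.14 (adjusted p = 0.0983), and *DAD1*, 1027691 bases away, with 0.16 (adjusted p = 0.0127). Neither of these 2 genes was called.

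*PSMD5* (ENSG00000095261.14, chromosome 9, positions 120815496 to 120842951), a chaperone in the assembly of the 26S proteasome, had normalized counts of 3351, 2866 and 3298 in del-4, 13.4, 6.02 and 9.7 in del-56 and 2787, 2771 and 2832 in WT. All del-56 libraries lay at 13.4 or lower while the other 6 libraries were at 2771 or higher (log2 fold change 8.27, SE 0.22, adjusted p = 2.25e-14). *ID4*, an inhibitor of basic helix-loop-helix factors, had 106, 69.7 and 88.4 in del-4 against 3.82, 2.01 and 0 in del-56 (log2 fold change 5.17, SE 0.58, adjusted p = 4.04e-06), and its WT values of 102, 69.5 and 41.5 were on the side of del-4. *SMIM10L2A* on chromosome X had 73, 71.7 and 93.4 in del-4, 0, 0 and 7.28 in del-56 and 429, 405 and 407 in WT (log2 fold change 5.30, SE 0.71, adjusted p = 2.71e-05). In this gene both clones lay under WT, del-56 by far the more.

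In other genes the high clone stood apart from WT. *RND3*, an atypical small GTPase that opposes actin contractility, had normalized counts of 319, 259 and 187 in del-4 but 1.91, 6.02 and 4.85 in del-56 and 0, 0 and 1.89 in WT (log2 fold change 5.67, SE 0.40, adjusted p = 8.65e-09). *BRINP1*, a neuronal gene, had 421, 291 and 344 in del-4, 13.4, 15.1 and 17 in del-56 and 25.1, 38.6 and 35.8 in WT (log2 fold change 4.44, SE 0.26, adjusted p = 7.12e-10). *TRPV3*, a heat-gated cation channel whose span overlaps that of *SPATA22*, had 698, 745 and 723, 45.8, 77.3 and 58.2 and 25.1, 29 and 30.2 in the same order of clones (log2 fold change 3.59, SE 0.19, adjusted p = 1.58e-10). For each of these 3 genes, del-56 was the clone nearer to WT. *HK3*, a hexokinase, followed the same order with 365, 359 and 331 in del-4, 0, 4.02 and 2.43 in del-56 and 27.1, 13.5 and 19.8 in WT, and so did *NPY1R*, a neuropeptide Y receptor, with 82.6, 87.6 and 98.4, 0, 4.02 and 7.28 and 17.4, 17.4 and 24.5. The spans of *HK3* and *UNC5A* overlap, and so do those of *NPY1R* and *NPY5R*, so their reads cannot be fully told apart.

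*LDHB* (ENSG00000111716.14, chromosome 12, positions 21635342 to 21757857), which encodes the lactate dehydrogenase subunit that favors the use of lactate, was among the 15 genes with the largest fold changes toward del-4. Its normalized counts were 18708, 19669 and 18255 in del-4, 1072, 1064 and 1152 in del-56 and 51306, 49048 and 46991 in WT. Both clones were under WT, and the mean of del-4 was 17.2 times that of del-56 (log2 fold change 4.11, SE 0.05, adjusted p = 3.97e-20). The gene ENSG00000285854, whose span overlaps that of *LDHB*, had nearly the same values, so the reads of the pair cannot be told apart. *MYL9*, a regulatory myosin light chain, had 44.2, 108 and 54.2 in del-4 against 0, 2.01 and 7.28 in del-56 (log2 fold change 4.47, SE 0.67, adjusted p = 1.04e-04). *SPART*, a protein of endosomes and lipid droplets, had 48, 37.8 and 30.1 in del-4, 13.4, 0 and 0 in del-56 and 81.2, 122 and 75.4 in WT (log2 fold change 4.00, SE 0.84, adjusted p = 0.00223), and its adjusted p was 0.24 in DESeq2. *KRT75*, a keratin of the hair follicle, completed the 15 with 13.4, 29.9 and 36.2 in del-4 against 0, 0 and 7.28 in del-56 (log2 fold change 3.66, SE 0.83, adjusted p = 0.00393).

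**Figure D2:**
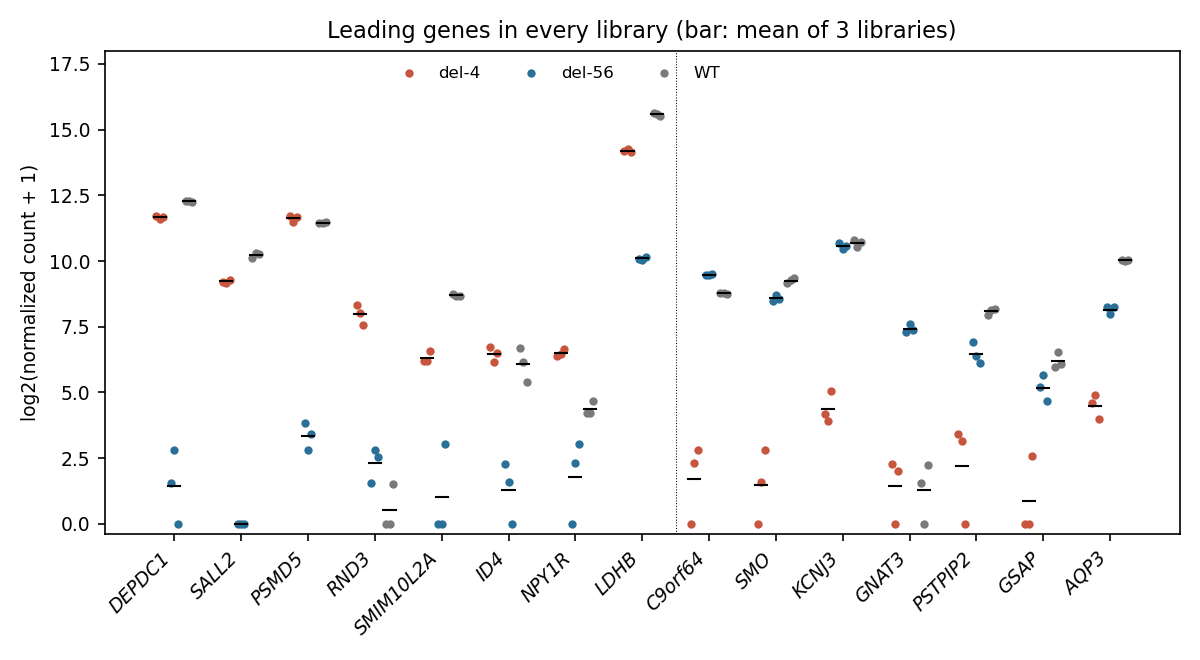
For 15 of the genes with large fold changes, each point is the log2 of the normalized count plus 1 in 1 library of del-4, del-56 or WT, and each bar is the mean of 3 libraries. The 8 genes left of the dotted line are higher in del-4 and the 7 on its right are higher in del-56, and WT sits beside the high clone in some genes (*PSMD5*, *KCNJ3*) and beside the low clone in others (*RND3*, *GNAT3*).

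In the opposite direction, *C9orf64* (ENSG00000165118.15, chromosome 9, positions 83938311 to 83956986), which encodes an enzyme that salvages the tRNA base queuine, had the largest fold change. Its normalized counts were 0, 3.98 and 6.03 in del-4, 704, 705 and 728 in del-56 and 437, 437 and 432 in WT. The 3 del-4 libraries were nearly empty while del-56 was above WT (log2 fold change -7.77, SE 0.51, adjusted p = 3.78e-09). *SMO* (ENSG00000128602.11, chromosome 7, positions 129188633 to 129213545), the seven-transmembrane transducer of Hedgehog signals, had 0, 1.99 and 6.03 in del-4, 355, 422 and 371 in del-56 and 570.2, 618 and 647 in WT. As with *C9orf64*, the transcript was present in WT and in one deletion clone and near absent in the other (log2 fold change -7.11, SE 0.52, adjusted p = 1.72e-08). *KCNJ3* (ENSG00000162989.5, chromosome 2, positions 154697855 to 154858354), a G protein-gated inward rectifier potassium channel, had 17.3, 13.9 and 32.1 in del-4, 1654, 1415 and 1516 in del-56 and 1763, 1484 and 1699 in WT (log2 fold change -6.19, SE 0.24, adjusted p = 2.79e-12). *PSTPIP2*, an actin-associated F-BAR protein, had 9.6, 7.97 and 0 in del-4, 120.2, 82.3 and 67.9 in del-56 and 245, 278 and 288 in WT (log2 fold change -4.28, SE 0.69, adjusted p = 1.97e-04). *AQP3*, a channel for water and glycerol, was low in del-4 at 23, 28.9 and 15.1, intermediate in del-56 at 301, 251 and 303 and highest in WT at 1048, 1015 and 1060 (log2 fold change -3.66, SE 0.27, adjusted p = 1.86e-08).

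Some genes were read mainly in del-56, with low values in both del-4 and WT. *GNAT3*, the taste G protein gustducin, had normalized counts of 3.84, 0 and 3.01 in del-4, 156, 193 and 164 in del-56 and 1.93, 0 and 3.77 in WT (log2 fold change -5.99, SE 0.54, adjusted p = 2.45e-07). Its span lies within that of *CD36*, a fatty acid receptor, which was also higher in del-56, with a log2 fold change of -3.59. Reads of *GNAT3* and *CD36* cannot be fully told apart. *HEY2*, a Notch-responsive repressor, had no read in del-4 or in WT and 30.5, 28.1 and 24.3 in del-56, which makes it at least 9.33-fold higher in del-56 (adjusted p = 8.05e-05). *IQSEC3* had 43.9, 52.2 and 35.2 in del-56 against 9.66, 1.93 and 3.77 in WT and at most 5.76 in del-4. *PI15*, a secreted peptidase inhibitor, had 38.2, 36.1 and 38.8 in del-56 against 1.93, 11.6 and 0 in WT and at most 2.01 in del-4. The remaining genes of the 15 were *CD8A* (at least 7.18-fold higher in del-56), *FKBP1B* (at least 6.81-fold), *LHX6* (56.2-fold, counting interval 15.2 to 469.9, on 2 reads in all of del-4), *TMEM37* (29.7-fold, 7.84 to 251, also on 2 reads), *GSAP* and *WFDC12*. Recovered values from 1 to 20 reads were even in 83.8% of cases, as when both mates of a fragment are counted, so 2 reads can be 1 fragment and the intervals and the 3-read floors understate the counting error. *GSAP*, linked to gamma-secretase, had 0, 0 and 5.02 in del-4, 36.3, 50.2 and 24.3 in del-56 and 60.9, 92.7 and 66.9 in WT (log2 fold change -4.32, SE 0.75, adjusted p = 4.13e-04). WT was also not low in *LHX6* (88.9, 52.1 and 66), *FKBP1B* (44.5, 27 and 26.4) and *TMEM37* (27.1, 25.1 and 26.4). The spans of *GSAP* and *CCDC146* overlap, as do those of *FKBP1B* and *MFSD2B*, so their reads cannot be fully told apart. In *CD8A* (15.5, 1.93 and 3.77) and *WFDC12* (9.66, 9.65 and 17) every WT library was under every del-56 library.

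The abundant genes with the largest differences in count were of another kind, since both clones expressed them. *CBLN2*, a synapse organizer of the cerebellin family, had normalized counts of 34013, 31810 and 34230 in del-4, 3190, 2842 and 2814 in del-56 and 1395, 1484 and 1485 in WT (log2 fold change 3.50, SE 0.05, adjusted p = 4.72e-19). *IGFBP3*, which binds insulin-like growth factors, had 40764, 24212 and 28846 in del-4 against 5213, 5157 and 5001 in del-56 (log2 fold change 2.58, SE 0.11, adjusted p = 1.61e-11), with del-4 replicate 1 well above the other 2. *ITPRID2* had 42204, 38783 and 40366 in del-4, 13689, 14446 and 14087 in del-56 and 14897, 15346 and 15729 in WT (log2 fold change 1.52, SE 0.04, adjusted p = 1.17e-14). In each of these 3 genes WT lay closer to del-56. *MAP1B*, a microtubule-associated protein, had 42694, 37785 and 37894 in del-4 against 15642, 12247 and 14104 in del-56 (adjusted p = 1.67e-11), and *PRUNE2* was also higher in del-4 (log2 fold change 1.11, SE 0.05, adjusted p = 7.52e-11). On the del-56 side, *CAMK2N1*, an inhibitor of calcium/calmodulin-dependent kinase II, had 11043, 9474 and 11688 in del-4 against 28984, 23943 and 23107 in del-56 (log2 fold change -1.24, SE 0.07, adjusted p = 1.07e-09). *MCCC2*, a subunit of the carboxylase that breaks down leucine, had 7818, 8544 and 8041, 18135, 18987 and 18419 and, in WT, 16794, 17254 and 16538 (log2 fold change -1.19, SE 0.04, adjusted p = 4.78e-13). *GASK1B* was also higher in del-56 (log2 fold change -1.51, SE 0.05, adjusted p = 4.78e-13), so that for *MCCC2* and *GASK1B* del-4 was the clone away from WT. *TNFRSF19*, a receptor of the tumor necrosis factor family, had 2693, 3725 and 3072 in del-4, 8980, 8739 and 8772 in del-56 and 3628, 3461 and 3397 in WT (log2 fold change -1.49, SE 0.08, adjusted p = 1.43e-10). *MIPEP*, a mitochondrial peptidase that lies beyond *TNFRSF19* on chromosome 13, was also higher in del-56 (log2 fold change -1.01, SE 0.06, adjusted p = 6.71e-10).

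Neither clone stood consistently nearer to WT over the called genes. Of the 241 genes higher in del-4, the WT mean was nearer to del-4 in 140 and to del-56 in 101. It lay between the clones in 130, above both in 71 and below both in 40. Of the 270 genes higher in del-56, WT was nearer to del-4 in 129 and to del-56 in 141, between the clones in 150, above both in 69 and below both in 51.

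Among the gene lists, histone genes held the most called members in one direction. Histones package DNA, and the replication-dependent genes make transcripts that end in a stem loop and not in a poly(A) tail, while these libraries were made from polyadenylated RNA. Of 71 histone genes tested, 12 were called higher in del-4 and none in del-56, against 1.38% and 1.55% of all tested genes. At the adjusted p alone 34 were higher in del-4 and none in del-56 (10.9% and 9.0% of all genes), and the median log2 fold change was 0.47. *H3C14* and *H3C15* had nearly the same values, as did *H4C14* and *H4C15*. The spans of *H3C12* and *H2AC17* overlap, so the 34 are not all separate counts. *H2BC12* had normalized counts of 14735, 13286 and 13368 in del-4, 5269, 5018 and 5255 in del-56 and 7053, 7146 and 7234 in WT (log2 fold change 1.41, SE 0.04, adjusted p = 1.83e-13). *H1-2*, a linker histone, had 14462, 14283 and 13296, 5112, 5723 and 5924 and 6820, 6113 and 5695 (log2 fold change 1.33, SE 0.05, adjusted p = 2.79e-12), and *H2BC11* had 1311, 1216 and 1126 in del-4 against 479.9, 383 and 422 in del-56 (log2 fold change 1.51, SE 0.10, adjusted p = 5.71e-09). In these 3 genes every del-4 library was above every del-56 and WT library. *H2AZ1*, which is made outside S phase from a polyadenylated transcript, differed by less (log2 fold change 0.31, SE 0.04, adjusted p = 4.18e-05). How much of the histone transcripts was polyadenylated was not measured.

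A list of *ATF4*, the factor that drives amino acid synthesis and transport when protein synthesis is held back, and its targets held 22 tested genes. All 22 had positive log2 fold changes, from 0.09 to 0.81 with a median of 0.29, and 19 were higher in del-4 at the adjusted p, against 10.9% of all genes. None passed the fold limit. *ASNS*, asparagine synthetase, had normalized counts of 24869, 23519 and 26650 in del-4 against 17076, 17858 and 17187 in del-56 (log2 fold change 0.52, SE 0.04, adjusted p = 7.34e-08). *SLC7A11*, the cystine transporter, had 22833, 20262 and 21610 in del-4 against 13675, 11701 and 11554 in del-56 (log2 fold change 0.81, SE 0.06, adjusted p = 7.10e-09), and *CHAC1*, which degrades glutathione, had 3180, 2330 and 2921 and 1702, 1597 and 1496 (log2 fold change 0.80, SE 0.09, adjusted p = 2.98e-06). The groups did not overlap in any of the 3. *ATF4* itself, 1 of the 19, was higher in del-4 (log2 fold change 0.29, SE 0.04, adjusted p = 2.55e-05).

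Genes of the translation machinery differed by small amounts. Of 84 cytosolic ribosomal protein genes, 80 had positive fold changes, 34 were higher in del-4 at the adjusted p and none in del-56 (10.9% and 9.0% of all genes), with a median of 0.13. That count was 11 without del-4 replicate 1, 13 without del-4 replicate 3, 16 without del-56 replicate 2, 20 after rescaling to the same total, 22 with no filter and 11 after quantile normalization. Its 1 called member, *RPL10L*, is a retrocopy of *RPL10* (log2 fold change 1.34, SE 0.14, adjusted p = 1.35e-06), and such copies are hard to tell from the parent gene. Of 35 genes of the PI3K, AKT and mTOR pathway none was called, 3 were higher in del-4 at the adjusted p and 4 in del-56, shares near those of all genes (10.9% and 9.0%), and the median was -0.01. *INPP4B*, a lipid phosphatase that opposes PI3K, had 1596, 1731 and 1517 in del-4 against 2601, 2855 and 2610 in del-56 (log2 fold change -0.74, SE 0.06, adjusted p = 1.67e-07), and *DEPTOR*, an mTOR inhibitor, had 1091, 1021 and 1073 and 1394, 1347 and 1346 (log2 fold change -0.36, SE 0.07, adjusted p = 0.0012). *EIF4EBP1*, the translation repressor that mTORC1 phosphorylates, was higher in del-4 (log2 fold change 0.33, SE 0.04, adjusted p = 1.12e-05). *PDCD4*, a translation inhibitor that the study followed, had 20439, 20322 and 20487 in del-4 against 18612, 20531 and 20670 in del-56 (log2 fold change 0.04, SE 0.04, adjusted p = 0.606), and the groups overlapped. Of 23 genes whose proteins the study listed as changed, a list chosen on these clones, *LDHB* was called, *PTGR1* (log2 fold change 0.77, SE 0.04, adjusted p = 3.64e-10), *FOLH1* and *AGPS* were also higher in del-4, and *NCAM2*, *CBX5*, *SNX3* and *GPD2* were higher in del-56.

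**Figure D3:**
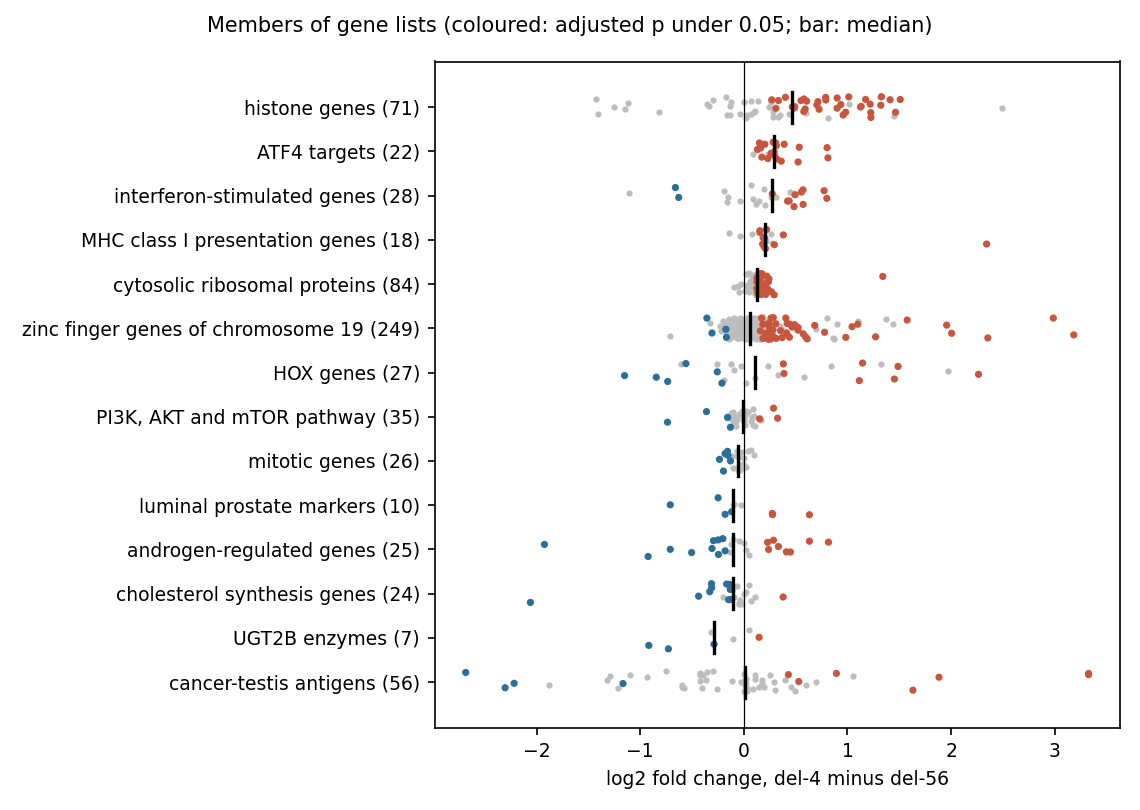
Each point is 1 tested member of a gene list, placed by its log2 fold change of del-4 minus del-56; points with an adjusted p under 0.05 are red where del-4 is higher and blue where del-56 is, grey points did not pass, black bars are medians and the number of tested members follows each name. The median is 0.47 for histone genes and 0.29 for ATF4 targets, and -0.01 for the PI3K, AKT and mTOR pathway.

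The androgen program differed gene by gene and not as a block. Of 25 androgen-regulated genes, 8 were higher in del-4 at the adjusted p and 10 in del-56, with a median of -0.10, against 10.9% and 9.0% of all genes. *KLK3* was higher in del-4 (log2 fold change 0.63, SE 0.04, adjusted p = 5.32e-09), together with *KLK4* (log2 fold change 0.45, SE 0.04, adjusted p = 5.70e-07) and *MAF* (log2 fold change 0.82, SE 0.09, adjusted p = 5.12e-06). *NDRG1* (log2 fold change -0.50, SE 0.04, adjusted p = 1.66e-08), *TMPRSS2*, the serine protease (log2 fold change -0.71, SE 0.05, adjusted p = 2.84e-09), and *STEAP4*, a metalloreductase and the only one called (log2 fold change -1.92, SE 0.39, adjusted p = 0.00171), were higher in del-56. The span of *TMPRSS2* overlaps that of *MX1*, an interferon-induced gene, which also was higher in del-56 (log2 fold change -0.66, SE 0.05, adjusted p = 2.11e-08). Of 10 luminal markers, 3 passed the adjusted p with more in del-4 and 4 with more in del-56. Of 7 UGT2B enzymes, which clear androgens, *UGT2B4*, *UGT2B7* and *UGT2B11* were higher in del-56 at the adjusted p, *UGT2B17* was higher in del-4 (log2 fold change 0.15, adjusted p = 0.0461), which was lost after rescaling to the same total (adjusted p = 0.116) and without del-4 replicate 1 or 3 or del-56 replicate 2 or 3 (adjusted p from 0.152 to 0.248), and *UGT2B15* was 0.05 (adjusted p = 0.466).

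Of 18 MHC class I presentation genes, 12 were higher in del-4 at the adjusted p and none in del-56 (10.9% and 9.0% of all genes), with a median of 0.20. *TAP1* and *PSMB9*, both among the 12, have overlapping spans and nearly the same values, so they are not separate counts. *HLA-B* had normalized counts of 2180, 1860 and 2249 in del-4 against 1681, 1524 and 1609 in del-56 (log2 fold change 0.38, SE 0.07, adjusted p = 0.001), and *TAP2*, a peptide transporter, had 4404, 4376 and 4653 and 3698, 3691 and 3556 (log2 fold change 0.30, SE 0.05, adjusted p = 1.44e-04). *PSMB8*, an immunoproteasome subunit, with a span that overlaps that of *PSMB9*, was the only one called (log2 fold change 2.34, SE 0.51, adjusted p = 0.00292). The count of 12 was 7 without del-4 replicate 1, 6 without del-56 replicate 2 and 6 without genes of overlapping span, and 8 after rescaling to the same total. Of 28 interferon-stimulated genes, 10 passed the adjusted p with more in del-4 and 2 with more in del-56 (10.9% and 9.0% of all genes), with a median of 0.27 and none called. *ISG15*, a ubiquitin-like modifier (log2 fold change 0.48, SE 0.06, adjusted p = 1.94e-05), and *OAS3*, a sensor of double-stranded RNA (log2 fold change 0.50, SE 0.05, adjusted p = 2.44e-06), were among the 10, and *HERC5* was higher in del-56 (log2 fold change -0.63, SE 0.12, adjusted p = 9.72e-04). The count of 10 was 6 without del-4 replicate 1.

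Of 24 cholesterol synthesis genes tested, 10 were higher in del-56 at the adjusted p and 1 in del-4 (9.0% and 10.9% of all genes), with a median of -0.11. *SQLE*, squalene epoxidase (log2 fold change -0.31, SE 0.04, adjusted p = 6.41e-05), *FDFT1*, squalene synthase (log2 fold change -0.31, SE 0.04, adjusted p = 8.78e-06), and *INSIG1*, the sensor that restrains the pathway (log2 fold change -0.33, SE 0.05, adjusted p = 7.32e-05), were among the 10. Without del-4 replicate 1, del-4 replicate 3 or del-56 replicate 3 the count was 4, 5 and 5. Of 26 mitotic genes, 6 were higher in del-56 and none in del-4 at the adjusted p (9.0% and 10.9% of all genes), with a median of -0.05, and *TTK*, a spindle checkpoint kinase, was the farthest from 0 (log2 fold change -0.23, SE 0.04, adjusted p = 9.40e-04). That count was 2 without del-4 replicate 1, del-4 replicate 3 or del-56 replicate 2, and 4 without del-56 replicate 3. *MKI67*, a proliferation marker, was -0.02 (adjusted p = 0.885).

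Germline and developmental gene families held called genes in both directions. Cancer-testis antigens are germline genes that tumors reactivate, and 56 of 97 passed the filter. Of these 4 were called higher in del-4 and 4 in del-56, against 1.38% and 1.55% of all tested genes. *MAGEC2* had normalized counts of 279, 303 and 239 in del-4, 1415, 1265 and 1365 in del-56 and 199, 237 and 239 in WT (log2 fold change -2.30, SE 0.11, adjusted p = 3.71e-11). *MAGEA10* ran the other way with 9341, 9064 and 9481 in del-4, 2759, 3071 and 3179 in del-56 and 6382, 6049 and 6124 in WT (log2 fold change 1.63, SE 0.05, adjusted p = 1.51e-13). *MAGEA4* was near lost in both clones, with 59.5, 94.6 and 108 in del-4 against 21, 18.1 and 29.1 in del-56 against 12546, 12240 and 12842 in WT (log2 fold change 1.88, SE 0.34, adjusted p = 6.07e-04). *CTAG1A* and *CTAG1B*, neighbouring copies with the same counts, were both called higher in del-4 (log2 fold change 3.33, SE 0.69, adjusted p = 0.00214), and their reads cannot be assigned to one of them, so the 4 hold only 3 separate measurements.

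Of 27 HOX genes tested, which set position along the body axis, 5 were called higher in del-4 and 1, *HOXC5*, in del-56, against 1.38% and 1.55% of all genes. Of these 5, 4 belong to the *HOXB* cluster: *HOXB3* with 202, 171 and 114 in del-4, 64.9, 73.3 and 38.8 in del-56 and 245, 308 and 307 in WT, *HOXB6*, *HOXB7* and *HOXB9*. The spans of *HOXB3* and *HOXB6* overlap, as do those of *HOXB7* and *HOXB9*, so the 4 are not separate counts. *HOXA11* and *HOXC5* lost their calls with 1 library left out, at adjusted p values of 0.0883 without del-4 replicate 1, 0.0519 without del-4 replicate 2 and 0.0569 without del-56 replicate 2 for *HOXA11*, and 0.104 without del-4 replicate 3, 0.0705 without del-56 replicate 1 and 0.067 without del-56 replicate 3 for *HOXC5*. *HOXC12* was not called (-0.84) and had 138, 149 and 123 in del-4 against 310.1, 201 and 238 in del-56 against a WT mean of 1299.

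Of 249 zinc finger genes of chromosome 19, which encode DNA-binding proteins that bring repressors to repeated elements, 9 were called higher in del-4 and none in del-56 (1.38% and 1.55% of all genes), and 48 and 4 passed the adjusted p (10.9% and 9.0%). A run of 37 of them between positions 19668796 and 24129968 held 7 of the 9, and 29 of the 37 had positive fold changes with a median of 0.36. *ZNF208* had normalized counts of 136, 162 and 133 in del-4, 22.9, 36.1 and 24.3 in del-56 and 37.7, 41.5 and 21.7 in WT (log2 fold change 2.35, SE 0.28, adjusted p = 7.87e-06). *ZNF257* had 86.4, 114 and 122, 9.54, 14.1 and 14.6 and 5.8, 19.3 and 5.66 (log2 fold change 2.99, SE 0.34, adjusted p = 4.96e-06), and *ZNF728* had 422, 371 and 462, 114, 88.4 and 108 and 282, 287 and 189 (adjusted p = 1.18e-07). WT was close to del-56 in the first 2 and between the clones in *ZNF728*.

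Among the regulators of DNA methylation, *DNMT3A*, a de novo methyltransferase, differed between the clones. Its normalized counts were 3112, 3251 and 3248 in del-4, 1808, 1829 and 1677 in del-56 and 2302, 2475 and 2545 in WT, with del-4 above and del-56 below WT and no overlap (log2 fold change 0.86, SE 0.06, adjusted p = 3.29e-09). *TET1*, a demethylating oxygenase, was the only other of 7 such genes to pass the adjusted p (log2 fold change 0.24, SE 0.07, adjusted p = 0.0289), and *DNMT1*, the maintenance enzyme, was -0.04 (adjusted p = 0.618). Of all tested genes, 19.9% passed the adjusted p.

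Of 64 integrins, cadherins and claudins, which hold cells to each other and to the matrix, 3 were called higher in del-4 and 2 in del-56, against 1.38% and 1.55% of all genes. *ITGA2*, a collagen receptor subunit, had normalized counts of 844, 914 and 884 in del-4, 290.1, 203 and 289 in del-56 and 1078, 909 and 980.4 in WT (log2 fold change 1.77, SE 0.13, adjusted p = 2.63e-08), and *CDH13*, an atypical cadherin, had 95.1, 92.6 and 67.3, 234, 191 and 239 and 379, 309.8 and 341 (log2 fold change -1.38, SE 0.21, adjusted p = 1.04e-04). *SEMA6A*, a transmembrane guidance molecule and the only one called of 52 ephrins, semaphorins and their receptors, was higher in del-4 (log2 fold change 1.01, SE 0.05, adjusted p = 3.28e-11), and *KRT19*, a luminal keratin, was higher in del-56 (log2 fold change -1.06, SE 0.09, adjusted p = 8.21e-08). Of 25 p53 targets, 8 were higher in del-4 at the adjusted p and 1 in del-56 (10.9% and 9.0% of all genes), among them *CDKN1A*, a cell cycle inhibitor (log2 fold change 0.46, SE 0.03, adjusted p = 1.94e-08), and *SPATA18*, the only one called (log2 fold change 1.26, SE 0.12, adjusted p = 4.99e-07). In the other lists 1 of 27 imprinted genes was called, 2 of 22 keratins, 4 of 41 collagens, 2 of 14 glutathione S-transferases and 7 of 349 solute carriers, against 2.93% of all tested genes. Many of these calls were lost in at least 1 alternative. They were the imprinted gene *PEG10*, both transferases (*GSTM2* and *GSTM4*), *COL6A3*, *COL12A1*, *COL19A1*, *SLC34A2*, *SLC38A8*, *SLC2A5* and *SLCO1B1*. None was called among 14 ETS factors, 38 WNT ligands, receptors and inhibitors or 9 DNA mismatch repair genes.

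Position along the genome was examined because a gain or loss of a chromosome segment in one clone would shift many neighbouring genes together. The median log2 fold change of chromosomes 1 to 22 and X lay between -0.04 for chromosome 6 and 0.06 for chromosome 19. The 3 libraries of one clone did not overlap those of the other for 10 of the 23 chromosomes, and the exact two-sided permutation test of 3 against 3 libraries cannot go below 0.10. On chromosome 19 the difference rested on replicates 2 and 3 of del-56, at -0.05 and -0.04, while del-56 replicate 1 was at 0.01. The 13 tested mitochondrial genes, outside that range, had a median of 0.15, with del-4 libraries at 0.16, 0.02 and 0.02 against 0.04, -0.13 and -0.14 for those of del-56, and the groups overlapped. Of 1632 windows of 50 neighbouring genes, 93.0% had a median within 0.1 of 0, and the range was -0.28 to 0.46. A segment shorter than a window can move without shifting these medians.

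**Figure D4:**
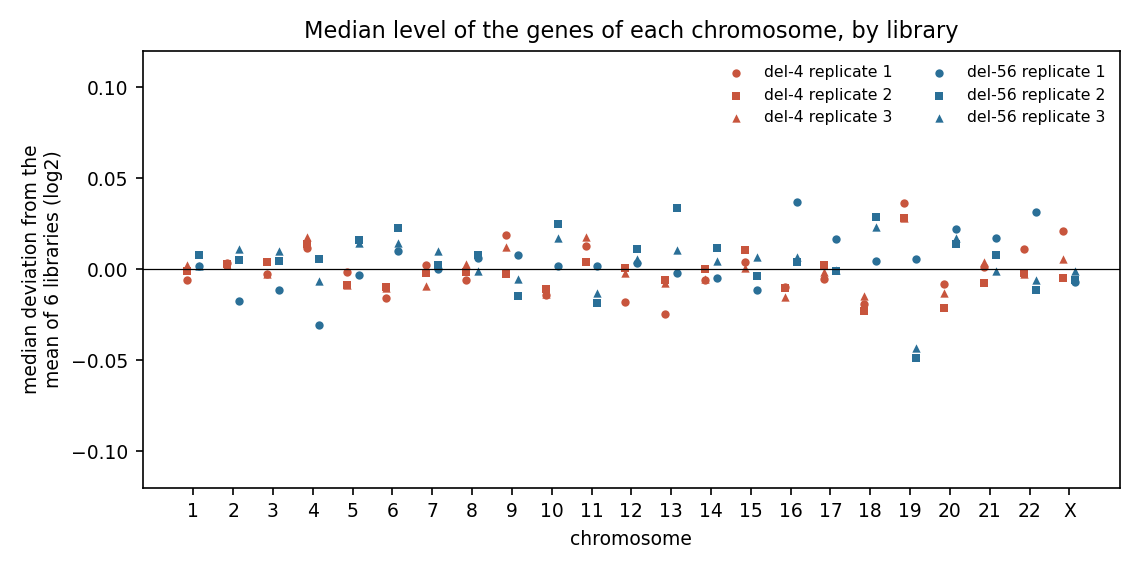
For each of chromosomes 1 to 22 and X the 6 points are the medians, over its tested genes, of the log2 deviation of 1 library from the mean of the 6 libraries; red marks del-4, blue marks del-56 and the marker shape gives the replicate. All points lie within 0.05 of 0, and the widest gap between the clones is on chromosome 19.

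Only 8 of the 1632 windows reached 0.25 on either side, with del-4 higher in 3 and del-56 in 5, and they joined to 2 regions. Under this limit, overlapping windows of the same sign also followed each other. On chromosome 6 the window from 152987362 to 166956124 had a median of -0.23 with 0 called genes. Negative windows also lay elsewhere on this chromosome: 79914814 to 96897891 (-0.16), 112087591 to 127459389 (-0.14), 138088505 to 149896011 (-0.14) and 158650014 to 170407067 (-0.22). A window of chromosome 16, from 74296814 to 82170224, had -0.19, and another, from 85690084 to 89936092, had -0.16. With del-4 higher, the window from 19900913 to 32829580 on chromosome 19 had 0.19. That window overlaps the run of zinc finger genes between positions 19668796 and 24129968. The cause of these shifts was not tested. The region on chromosome 6, positions 24797373 to 28159460, held 70 tested genes with a median of 0.27, of which 44 were histone genes, and the 26 others had a median of -0.02. The region on chromosome 5, positions 140786136 to 148339852, held 90 genes with a median of -0.13, of which 52 were clustered protocadherins, cell surface proteins of neurons. Of these 52, 23 were higher in del-56 at the adjusted p (9.0% of all genes) and 1 in del-4, *PCDHB4* (log2 fold change 1.45, SE 0.34, adjusted p = 0.00567). The *PCDHA* genes share exons and have nested spans, and so do the *PCDHG* genes. Reads in the shared parts cannot be assigned to one gene, so members of these clusters are not separate measurements. The *PCDHB* genes do not overlap each other, and *PCDHB2* was higher in del-56 (log2 fold change -0.39, SE 0.07, adjusted p = 6.58e-04). Without genes of overlapping span 39 genes of the region remained with a median of 0.05. With del-56 replicate 1 left out, no window reached the limit on the del-56 side.

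Called genes were also counted among the neighbours of called genes. Among the 9294 genes of mean 10 or more whose spans overlap no other, 384 (4.13%) were called, and 77 of the 384 had a called gene as their next neighbour on at least 1 side, 69 of them in the same direction. Of 766 such neighbouring places 90 (11.7%) were called. The 30 genes with the largest fold changes had 59 flanking genes, of which 4 were called: *CCDC169-SOHLH2* beside *SPART* (log2 fold change 2.94), *MBOAT1* beside *ID4* (1.86), *SEMG1* beside *WFDC12* (-1.12) and *NR4A2* beside *KCNJ3* (-1.06). Each of the 4 moved in the direction of its neighbour. In the same order, they lay 3796, 257487, 82568 and 1466083 bases from it.

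The protein-coding genes nearest to *EPCART* on chromosome 2 are *CWC22* and *UBE2E3*. *CWC22*, a splicing factor, had normalized counts of 2706, 2618 and 2506 in del-4 against 2669, 2933 and 2797 in del-56 (log2 fold change -0.10, SE 0.05, adjusted p = 0.226), and the groups overlapped. *UBE2E3*, a ubiquitin-conjugating enzyme, had 8026, 7919 and 8317 in del-4, 6710, 6834 and 6442 in del-56 and 10190, 10106 and 10601 in WT (log2 fold change 0.28, SE 0.04, adjusted p = 6.62e-05). Its order was WT, del-4 and del-56 from the highest to the lowest, with no overlap between neighbours.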

How the data were processed

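Paired-end reads of 9 polyadenylated-RNA libraries were aligned by the authors to GRCh38 with STAR (2.71a in the submitters' processing notes) and counted on protein-coding genes with bedtools 2.27.1. The deposited signal values are those counts divided by 1 DESeq2 size factor per library. Within a tolerance of 0.001, each library's values are whole multiples of a single step, and the recovered reads total 91074556 to 118877134 per library. Whether introns were counted is not given in the sources used here. Some genes with overlapping spans hold nearly the same values, so their reads cannot be told apart: 6393 of the 17447 tested genes (36.6%) overlap another gene of the table, 86 of the 511 called genes among them. The use of strand in counting is not given in the sources used here. Levels are not compared between genes. Symbols and positions came from GENCODE version 44, in which 19905 of the 19984 identifiers were found.

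del-4 was compared with del-56 by limma 3.58.1 in R 4.3.3, with a variance trend, on log2 of the normalized count plus 1, for genes whose mean over the 6 libraries was 1 or more. Fold changes are on that scale, which understates the change of low genes, and p-values were adjusted by Benjamini-Hochberg over all tested genes. A gene was called at an adjusted p under 0.05 and a log2 fold change beyond 1 either way. Named genes are the 15 largest fold changes each way among called genes with a mean of at least 10 and groups that do not overlap, the 5 largest differences in count each way, genes with at most 3 reads in every library of one clone and at least 50 in the other, the farthest members of each list and the genes next to *EPCART*. Other members, and the 12 genes under the limits of 10 and 50 reads, were named after their values were seen. The genes, the 33 lists and the promoters were chosen with earlier results of these data known. Intervals and floors cover counting error only. Alternatives were other pseudocounts, filters, scalings and window sizes, a fit of 9 libraries, a replicate block, edgeR 4.0.16, DESeq2 1.42.0 and leaving out each library. The steps were tested on simulated data. Some members of the lists are counted but not reported here by name.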

Additional observations from a re-analysis of the deposited data

How the results depend on the processing

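The counts of called genes, 241 and 270, stayed within 1.5 times under all planned fits and tools, at 217 to 256 and 228 to 300. With 1 library left out they were 203 to 252 higher in del-4 and 204 to 255 higher in del-56. Without genes of overlapping span, an alternative chosen after seeing the data, they were 203 and 222. At an unadjusted p with the same fold limit they were 331 and 416, and at the adjusted p with no fold limit 1898 and 1571. Rescaling to the same total moved the median of all genes to -0.043. The 8 windows became 33 with windows of 25 genes and 2 without overlapping spans, and lay between 3 and 8 with 1 library left out (5 without del-4 replicate 3 and 3 without del-56 replicate 1), and 12 after rescaling to the same total. The cause was not tested.

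Replicate numbers did not pair the libraries: the correlation of deviations between libraries of the same number was 0.033, 0.031 and 0.025, although each library correlated best with its own number. With the replicate number as a block, the counts were 239 and 260. Of 1780 recomputed fold changes of 112 named genes none reversed and 1697 stayed on the same side of the adjusted p limit, and 18 of the 92 named genes under it lost it in at least 1 alternative. Of 543 recomputed list medians 478 moved by less than the spread between cultures. With 1 clone on each side, differences cannot be told apart from those between any 2 LNCaP clones.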
